A study of Danio rerio with 6 samples.

Results

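The semaphorins, their plexin and neuropilin receptors and the collapsin response mediator proteins (CRMPs) were followed in whole zebrafish larvae with and without functional panx1a. Genes were taken by symbol, as every gene whose name begins with sema and a digit, plxn, nrp1, nrp2, crmp1 or dpysl. This gave 35 of the 15336 genes listed in the deposited count files, namely 19 semaphorins, 6 plexins, 4 neuropilins and 6 CRMPs. Enough reads for a test were counted on 33 of them, among 12797 genes tested in all. Total RNA came from 6 dpf larvae without treatment, in 3 libraries of the wild-type Tupfel long fin strain (TL controls) and 3 libraries of panx1a-/- larvae on the same TL background. The panx1a-/- line descends from a founder fish in which a TALEN pair left a short frameshift deletion in panx1a. How many larvae made up a library, and whether the libraries of a genotype came from separate clutches, was not given in the sources used here, so the p-values measure the spread between these libraries, which may be technical.

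Semaphorins are guidance cues that share a sema domain and steer growing axons, vessels and migrating cells. Class 3 semaphorins are secreted and mostly bind neuropilins, which pass the signal on through A-type plexins, whereas semaphorins of classes 4, 5 and 6 span the membrane and class 7 is tethered by a lipid anchor, and these bind plexins or integrins directly. Plexins act inside the cell on small GTPases, among them those of the Ras and Rap families. CRMPs are cytosolic proteins that bind tubulin and relay semaphorin 3A signals to the growth cone skeleton, and neuropilins also serve as co-receptors for VEGF in blood and lymph vessels.

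The libraries held between 13054759 and 21472044 reads on genes. Reads on panx1a itself numbered 110, 114 and 147 in TL controls 1, 2 and 3 but 22, 17 and 13 in the panx1a-/- libraries, which put the targeted gene at −2.72 on the log2 scale (standard error, SE, 0.26, edgeR quasi-likelihood adjusted p = 0.00793). Of the uniquely aligned reads, 30.2% to 42.9% were assigned to no gene in the TL controls, highest in replicate 1. In panx1a-/- larvae 48.4% to 59.4% were. Whether these reads lie outside genes or within them was not tested. Marker lists of tissues in a whole larva were also counted, beside 9.88% of all genes called higher and 11.8% called lower in panx1a-/- larvae. Of the genes of each list that were tested, 7 of 18 neuronal markers were called higher in panx1a-/- larvae, while 7 of 13 epidermal, 5 of 15 muscle, 6 of 7 cartilage and bone, 9 of 14 gut and pancreas and 1 of 11 endothelial markers were called lower. The summed level of the neuronal markers was 2368 to 4879 CPM in the TL controls and 5360 to 8195 CPM in panx1a-/- larvae, while that of the endothelial markers overlapped, at 64.1 to 68.4 and 61.5 to 72.8 CPM. The part of these shifts in the results below was not tested, and in RNA of whole larvae fewer cells of a type and less RNA per cell cannot be told apart.

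Of the class 3 semaphorins 4 fell in panx1a-/- larvae, as did plxnb2a, plxnd1 and crmp1, while sema7a and nrp2b rose. At an adjusted p-value below 0.05 in edgeR's quasi-likelihood test, 7 of the 33 tested genes were called lower, or 21.2%, where 11.8% of all genes tested were. They were sema3b, sema3d, sema3ga, sema3gb, plxnb2a, plxnd1 and crmp1. Only sema7a and nrp2b were called higher, or 6.06%, against 9.88% of all genes. A log2 fold change below 0 was found for 25 of the 33 genes (22 when scaled by library size alone) and for 53.2% of all genes tested, with a median of −0.64 against −0.06. The levels of the genotypes did not overlap in 13 genes that were lower and 2 that were higher in panx1a-/- larvae, together 15 of 33, and in 47.5% of all genes (24.1% lower and 23.4% higher). For the called genes described below, levels without overlap follow in part from the call and add little to it. The calls depended on which libraries were kept. Without TL replicate 2 only sema3gb was called. None of the family was called without TL replicate 3, panx1a-/- replicate 1 or panx1a-/- replicate 3. There 11, 13 and 12 of its genes had an unadjusted p-value below 0.05. Without TL replicate 1 or panx1a-/- replicate 2, 11 and 10 genes were called. Over all genes, leaving out TL replicate 2, TL replicate 3, panx1a-/- replicate 1 or panx1a-/- replicate 3 left 142, 3, 19 and 4 calls. Dropping TL replicate 1 or panx1a-/- replicate 2 gave 4708 and 3658. Unadjusted p-values of all genes were not counted in these fits. In the main fit they were below 0.05 for 18 of the 33 genes. Of all genes, 23.6% were lower and 20.0% higher at that level. With the share of reads assigned to no gene entered as a covariate, 0 of the family and 1 of all genes were called. Then nrp1a, plxna3 and sema3gb, or 3 genes, had unadjusted p-values below 0.05. Since this share was higher in every panx1a-/- library than in every control, the covariate and the genotype cannot be told apart.

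**Figure D1:**
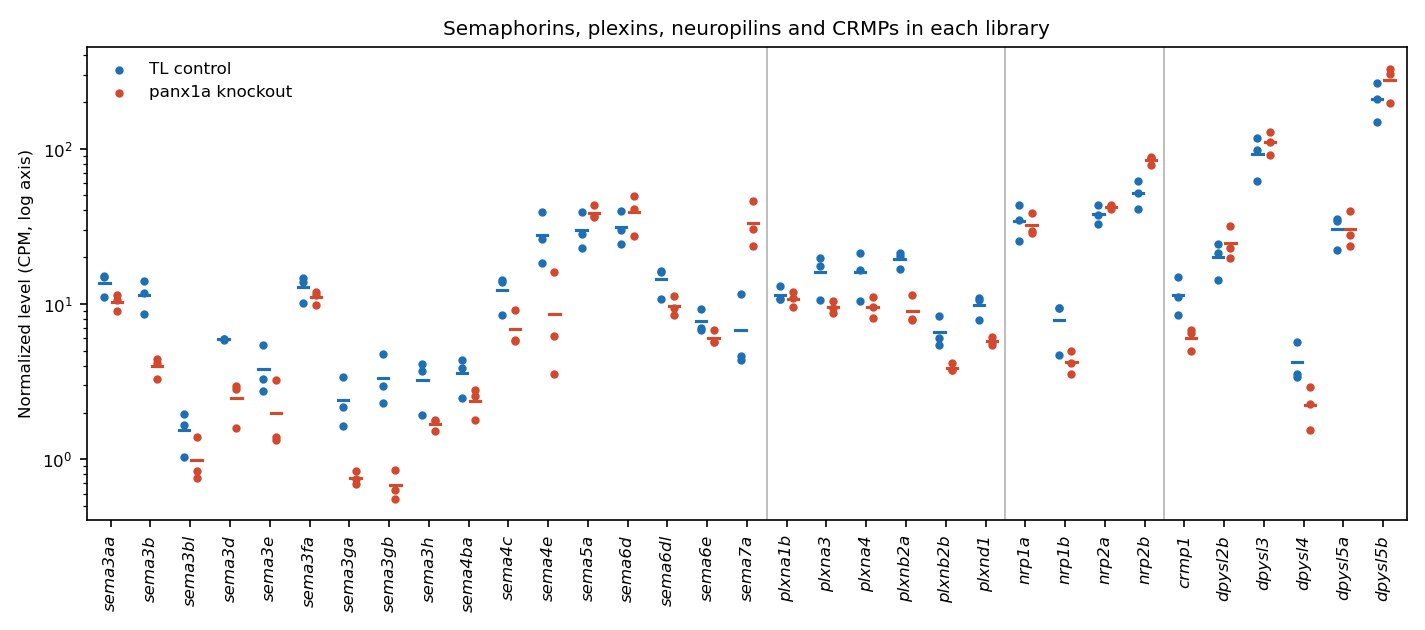
Normalized level in CPM (log axis) of the 33 tested genes in each library, with TL controls in blue, panx1a-/- larvae in red and short lines at the mean of 3 libraries. CPM are not corrected for gene length, so genotypes can be compared within a gene but not levels between genes. All red points of sema3gb, sema3ga and sema3b lie below the blue ones, and those of sema7a and nrp2b lie above them.

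The largest falls to pass the test among the ligands were those of the class 3 semaphorins sema3ga and sema3gb, the zebrafish copies of a semaphorin that is made by endothelial cells in the mouse. Levels are given as CPM, the TMM-normalized counts scaled to a common library size, in the order of replicates 1, 2 and 3. sema3gb was at 2.95, 2.30 and 4.75 CPM in the TL controls and at 0.638, 0.850 and 0.556 CPM in panx1a-/- larvae. Even the lowest TL control was above every panx1a-/- library. The counts behind these levels were low, with 11, 16 and 8 reads in panx1a-/- larvae, though above the limit of 3 counts, which came to between 0.155 and 0.209 CPM. sema3gb fell 4.82-fold, a log2 change of −2.27 (SE 0.38, edgeR quasi-likelihood adjusted p = 0.0264). sema3ga was at 1.64, 2.18 and 3.41 CPM in the TL controls and at 0.696, 0.744 and 0.834 CPM in panx1a-/- larvae, again without overlap. Its fall was 3.17-fold, a log2 change of −1.67 (SE 0.37, edgeR adjusted p = 0.0308). When a library was left out, the adjusted p of sema3gb ran from 0.0105 to 0.117 and that of sema3ga from 0.0111 to 0.122.

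sema3b, whose human counterpart is known as a candidate tumor suppressor, was at 8.58, 11.7 and 14.1 CPM in the TL controls and at 3.30, 4.14 and 4.45 CPM in panx1a-/- larvae. The genotypes were well separated, and the spread was wider in the TL controls. Its mean level went from 11.5 ± 2.79 to 3.97 ± 0.593 CPM (± SD, n = 3), a log2 change of −1.53 (SE 0.25, edgeR quasi-likelihood adjusted p = 0.0262). The gene sema3bl lies next to sema3b in the RefSeq gene order of the zebrafish assembly GRCz12tu. At 1.97, 1.03 and 1.65 CPM in the TL controls and 0.754, 1.38 and 0.834 CPM in panx1a-/- larvae, its genotypes overlapped, and it was not called (log2 fold change −0.64, adjusted p = 0.228).

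sema3d guides retinal axons to the optic tectum in zebrafish. It was at 5.95, 5.86 and 5.94 CPM in the TL controls, the narrowest spread of the 33 genes there (coefficient of variation 0.81%, against a median of 26.8%). In panx1a-/- larvae its levels were 2.84, 2.98 and 1.60 CPM, all below the controls. This was a fall of 2.37-fold, a log2 change of −1.25 (SE 0.27, edgeR quasi-likelihood adjusted p = 0.0310). sema3e lies near sema3d in the GRCz12tu gene order, with sema3ab between them. In the mouse, Sema3e binds plexin D1 without a neuropilin. sema3e was at 2.73, 3.26 and 5.47 CPM in the TL controls and 1.33, 3.24 and 1.39 CPM in panx1a-/- larvae. Replicate 2 of the panx1a-/- larvae lay within the range of the controls, and the difference did not pass the test (log2 fold change −0.93, adjusted p = 0.132), except without that library (adjusted p = 0.0316, edgeR's quasi-likelihood test). When a library was left out, the adjusted p of sema3b ran from 0.00675 to 0.117 and that of sema3d from 0.0195 to 0.122. Scaled by library size alone, sema3d was not called (0.0550).

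Of the remaining class 3 semaphorins none was called in edgeR's quasi-likelihood test, and edgeR's exact test called sema3h (adjusted p = 0.0424). sema3aa, a zebrafish copy of the classical axon repellent, was at 14.8, 11.1 and 15.1 CPM in the TL controls and at 11.4, 10.7 and 9.04 CPM in panx1a-/- larvae. The genotypes overlapped (log2 fold change −0.40, SE 0.19, edgeR quasi-likelihood adjusted p = 0.146). sema3fa and sema3h had log2 fold changes of −0.22 (adjusted p = 0.3999) and −0.94 (adjusted p = 0.0699), and only the levels of sema3h were without overlap. The other copy of sema3aa, sema3ab, had 0 counts in every library. In all, 4 of 9 tested class 3 semaphorins were called lower, or 44.4%, and 9 of 9 had a log2 fold change below 0, where the shares of all genes were 11.8% and 53.2%. Without TL replicate 3, panx1a-/- replicate 1 or panx1a-/- replicate 3 the test called 0 of the class. In these fits 4, 5 and 4 of its genes had an unadjusted p-value below 0.05, and the calls over all genes were 3, 19 and 4. Without TL replicate 2 the test called 1 of the class and 142 of all genes. The count of 9 below 0 was the same under each other scaling of the libraries. It was 8 with the share of reads assigned to no gene entered as a covariate, where the value of sema3e turned positive. The summed level of the class was 49.6 to 69.3 CPM in the TL controls and 31.6 to 35.6 CPM in panx1a-/- larvae.

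Of the membrane-bound semaphorins of classes 4, 5 and 6, edgeR's quasi-likelihood test called 0 of 7 tested genes, against 21.6% of all genes. Still, 3 of the 7 were lower at an unadjusted p-value below 0.05, where 23.6% of all genes were. A log2 fold change below 0 was found for 5 of the 7, against 53.2% of all genes. The median of the 7 was −0.56, against −0.06 over all genes. DESeq2 called 2 of them, edgeR's exact test 2, limma-voom 1 and a fit with a replicate block 1. sema4e, which guides branchiomotor axons in zebrafish, was at 18.4, 39.2 and 26.2 CPM in the TL controls and at 3.54, 16.2 and 6.26 CPM in panx1a-/- larvae. Every panx1a-/- library was lower, but replicate 2 of each genotype was far above the others. The log2 fold change of −1.68 had a standard error of 0.54, which was the largest of the family, and the adjusted p was 0.0591. With panx1a-/- replicate 2 left out, it was −2.51 (edgeR adjusted p = 0.00875). sema4c was at 14.3, 8.46 and 13.9 CPM and at 5.80, 9.09 and 5.84 CPM, with TL replicate 2 below panx1a-/- replicate 2 (log2 fold change −0.82, adjusted p = 0.0645), and it was called without the latter library (adjusted p = 0.0316 in edgeR). The third class 4 gene, sema4ba, overlapped too (log2 fold change −0.59, adjusted p = 0.173).

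sema5a, a semaphorin with thrombospondin repeats, was at 39.1, 22.8 and 28.1 CPM in the TL controls and at 36.1, 36.6 and 43.2 CPM in panx1a-/- larvae. TL replicate 1 lay within the range of the mutants, and the log2 fold change of 0.37 (standard error 0.21) was not called (edgeR quasi-likelihood adjusted p = 0.215), though it was without that library (adjusted p = 0.0299). Class 6 semaphorins bind A-type plexins directly in the mouse. The gene listed as sema6d was at 24.1, 39.5 and 29.9 CPM in the TL controls and at 49.6, 27.4 and 40.9 CPM in panx1a-/- larvae, with overlap (log2 fold change 0.33, adjusted p = 0.340). sema6dl and sema6e had log2 fold changes of −0.56 (adjusted p = 0.0886) and −0.35 (adjusted p = 0.227). Some of these symbols are older ones. In the RefSeq table of GRCz12tu, sema6dl is a synonym of the present sema6d and sema6e of sema6cb, and sema6d is also a synonym of sema6ca, so the gene counted as sema6d may be sema6ca. sema6a had 0 counts in every library, as sema3ab did. Up to 3 counts, or 0.209 CPM in the shallowest library, would not be told from 0. Whether reads of either gene could be counted under the annotation used was not tested, so the 0 counts give no bound on their RNA.

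The class 7 semaphorin sema7a went the other way. Its mammalian counterpart is anchored in the membrane by a lipid and promotes axon growth through integrins. It was at 11.5, 4.59 and 4.34 CPM in the TL controls and at 30.4, 23.5 and 45.9 CPM in panx1a-/- larvae. The lowest mutant library was above the highest control, and TL replicate 1 stood above the other controls. In each genotype the level was highest in the library with the largest share of reads assigned to no gene. These were TL replicate 1 (42.9%) and panx1a-/- replicate 3 (59.4%), and the cause was not tested. The same libraries were highest for sema5a, nrp1a, plxna3, dpysl3, dpysl5a and dpysl5b, none of them called in the main fit. The mean level of sema7a rose from 6.82 ± 4.08 to 33.3 ± 11.5 CPM (± SD, n = 3), or 4.86-fold and by 2.28 on the log2 scale (SE 0.43, edgeR quasi-likelihood adjusted p = 0.0279). It stayed between 1.985 and 2.90 when a library was left out, with an adjusted p from 0.00458 to 0.117. As a share of all semaphorin reads, sema7a made up 5.98%, 2.47% and 2.19% in the TL controls and 17.2%, 13.9% and 24.1% in panx1a-/- larvae. It was the only semaphorin called higher, and its log2 fold change was 0.53 with the share of reads assigned to no gene entered as a covariate (adjusted p = 0.999). The other called genes were then at 0.28 (nrp2b), −0.53 (plxnb2a), −0.80 (sema3d), −0.97 (sema3ga), −1.08 (sema3b), −1.78 (sema3gb), −0.94 (plxnd1) and −1.03 (crmp1). Of these, only plxnd1 and crmp1 were further from 0 than in the main fit.

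**Figure D2:**
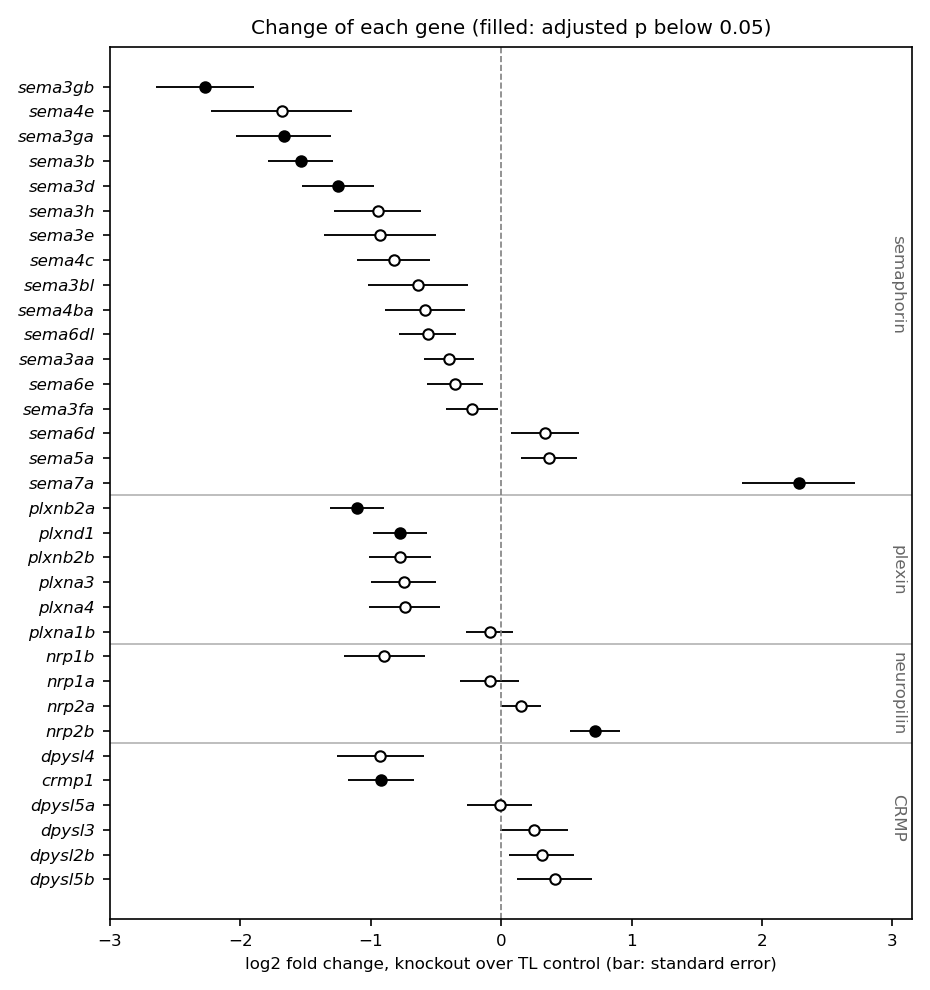
Log2 fold change (panx1a-/- over TL control) of the 33 tested genes from edgeR's quasi-likelihood fit, with bars of 1 standard error and n = 3 libraries per genotype, sorted within the 4 families. Filled points have an adjusted p below 0.05. The filled points are 4 class 3 semaphorins, plxnb2a, plxnd1 and crmp1 below 0 and sema7a and nrp2b above it.

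Among the receptors, plxnb2a and plxnd1 fell and nrp2b rose. Of 6 plexins, 2 were called lower (33.3%, against 11.8% of all genes), 5 were lower at unadjusted p-values below 0.05 (23.6% of all genes were) and the median log2 fold change was −0.76, while the 4 neuropilins had a median of 0.03. The count of 5 became 1 when scaled by library size alone, 3 without TL replicate 1 and 2 without TL replicate 3. plxnb2a, a B-type plexin of the kind that binds class 4 semaphorins in mammals, was at 16.8, 20.3 and 21.4 CPM in the TL controls and at 7.94, 11.4 and 7.86 CPM in panx1a-/- larvae. Its levels did not overlap and fell 2.15-fold, a log2 change of −1.10 (SE 0.21, edgeR quasi-likelihood adjusted p = 0.0279). The symbol now belongs to the gene plxnb2a.1 of GRCz12tu, which has further copies beside it, so its reads may be shared. Its second gene, plxnb2b, was at 6.06, 5.44 and 8.42 CPM and at 3.77, 4.14 and 3.75 CPM, also without overlap, and missed the threshold (log2 fold change −0.77, SE 0.24, edgeR adjusted p = 0.0514). It was called by DESeq2 (adjusted p = 0.0399), by edgeR's exact test (0.0312), with upper-quartile factors (0.0418), with at least 10 counts required in every library (0.0492) and without TL replicate 1 (0.0476). plxnd1, the vessel plexin without which intersegmental vessels of zebrafish lose their path, was at 10.7, 11.003 and 7.90 CPM in the TL controls and at 6.15, 5.42 and 5.70 CPM in panx1a-/- larvae. The mutant libraries lay close together below all controls, and it fell by 0.77 on the log2 scale (SE 0.21, edgeR adjusted p = 0.0392). When a library was left out, the adjusted p of plxnb2a ran from 0.00873 to 0.117 and that of plxnd1 from 0.0472 to 0.129. Scaled by library size alone, plxnd1 was not called (0.133).

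The A-type plexins, which pair with neuropilins to receive class 3 semaphorins, were not called in edgeR's quasi-likelihood test (0 of 3, with 2 at an unadjusted p-value below 0.05). Scaled by library size alone, or without TL replicate 1 or TL replicate 3, 0 were at that level. DESeq2 and limma-voom called 0 of them and edgeR's exact test 1. This was plxna3, which edgeR's quasi-likelihood test called with upper-quartile factors (adjusted p = 0.0448) and with a replicate block (0.0423). plxna3, known in zebrafish for keeping motor axons on their path out of the spinal cord, was at 19.8, 10.6 and 17.6 CPM in the TL controls and at 9.45, 8.71 and 10.5 CPM in panx1a-/- larvae, with TL replicate 2 just above the mutants (log2 fold change −0.74, SE 0.25, edgeR adjusted p = 0.0615). plxna4 had a like pattern, with 21.1, 10.4 and 16.6 CPM and 9.62, 11.1 and 8.13 CPM, and here TL replicate 2 fell within the mutant range (log2 fold change −0.74, adjusted p = 0.0762). In the RefSeq table of GRCz12tu, plxna4 is a present symbol and also a synonym of its neighbour chchd3a. Which gene was counted under it was not tested. plxna1b stayed near 0 (log2 fold change −0.09, adjusted p = 0.733), and its value was above 0 when scaled by library size alone (0.13).

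nrp2b was the only receptor gene called higher, or 1 of 10 (10%), against 9.88% of all genes. In mammals neuropilin 2 binds semaphorin 3F and VEGF-C. nrp2b was at 61.6, 40.9 and 51.9 CPM in the TL controls and at 88.8, 78.9 and 86.8 CPM in panx1a-/- larvae, without overlap. The mean rose from 51.5 ± 10.3 to 84.8 ± 5.26 CPM (± SD, n = 3), or 1.65-fold (log2 fold change 0.72, SE 0.19, edgeR quasi-likelihood adjusted p = 0.0380). When a library was left out its adjusted p ran from 0.0120 to 0.137. Scaled by library size alone it missed the threshold (0.0569). Its copy nrp2a was at 43.4, 32.9 and 37.6 CPM in the TL controls and at 42.9, 43.1 and 40.7 CPM in panx1a-/- larvae. TL replicate 1 lay above all mutant libraries, and nrp2a was not called (log2 fold change 0.15, SE 0.15, edgeR adjusted p = 0.453). nrp1b was at 9.40, 4.72 and 9.40 CPM and at 3.54, 4.94 and 4.17 CPM, with TL replicate 2 inside the mutant range. It was not called (log2 fold change −0.89, SE 0.31, edgeR adjusted p = 0.0659), except lower by DESeq2 (adjusted p = 0.0465) and edgeR's exact test (0.0379). The libraries of nrp1a also overlapped (log2 fold change −0.09, adjusted p = 0.781).

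**Figure D3:**
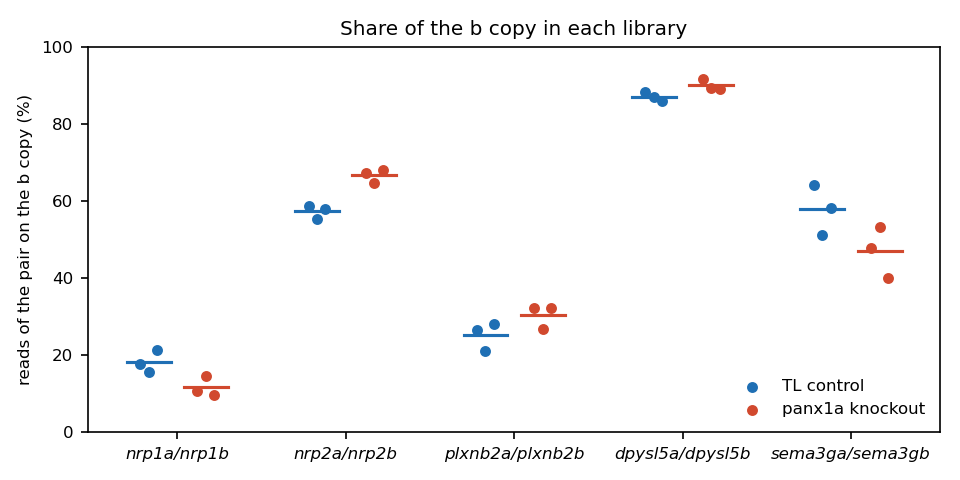
Share (%) of the reads of each a and b gene pair that fell on the b copy, in each library, with TL controls in blue, panx1a-/- larvae in red and lines at the mean of 3. The share does not depend on library scaling. The b copy took more of the nrp2 reads (57.3% to 66.7% on average) and less of the nrp1 reads (18.3% to 11.7%) in panx1a-/- larvae.

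Zebrafish keep duplicate copies of many of these genes, and the share of a pair's reads on its b copy compares the copies within a library, free of scaling. For nrp2a and nrp2b this share was 58.7%, 55.4% and 58.0% in the TL controls and 67.4%, 64.6% and 68.0% in panx1a-/- larvae, higher in every mutant library. For nrp1a and nrp1b it was 17.8%, 15.7% and 21.4% and then 10.6%, 14.6% and 9.72%, lower in every mutant library. For dpysl5a and dpysl5b it was 88.3%, 87.0% and 85.9% and then 91.6%, 89.3% and 89.2%, again without overlap but with a mean difference of 2.97 percentage points. Each of these 3 pairs had p = 0.1 in a two-sided exact permutation test, the smallest that 3 libraries against 3 can give, and an adjusted p of 0.167 over the 5 pairs compared. The shares of plxnb2a and plxnb2b and of sema3ga and sema3gb overlapped between the genotypes (exact permutation test, p = 0.2 for each). No pair could pass the threshold at this number of libraries. Copy pairs outside the family were not counted, so how often such shares separate is not known here. Of single genes, 47.5% of all tested did not overlap. The called nrp2b enters the nrp2 share, so that share restates its call in part.

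Ligand and receptor reads were also set against each other within each library, as a description. Reads on all semaphorins over reads on plexins and neuropilins gave ratios of 0.787, 1.08 and 0.915 in the TL controls and 0.828, 0.814 and 0.883 in panx1a-/- larvae. These ranges overlapped. For class 3 semaphorins over A-type plexins, plexin D1 and neuropilins, the partners of this class, the ratios were 0.252, 0.338 and 0.372 in the TL controls and 0.172, 0.185 and 0.155 in panx1a-/- larvae, so that every mutant library was lower. The called class 3 semaphorins, plxnd1 and nrp2b all enter this ratio, so it restates those calls in part. Within the receptors, plexins took 35.7%, 39.7% and 38.2% of the reads in TL control libraries and 22.9%, 24.9% and 21.1% in panx1a-/- larvae, with the remainder on neuropilins. The called plxnb2a, plxnd1 and nrp2b enter this share in the same way. The summed neuropilin level overlapped between the genotypes, at 104 to 158 CPM and 156 to 170 CPM, while the summed plexin level did not, at 68.5 to 87.5 CPM and 45.5 to 51.6 CPM.

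**Figure D4:**
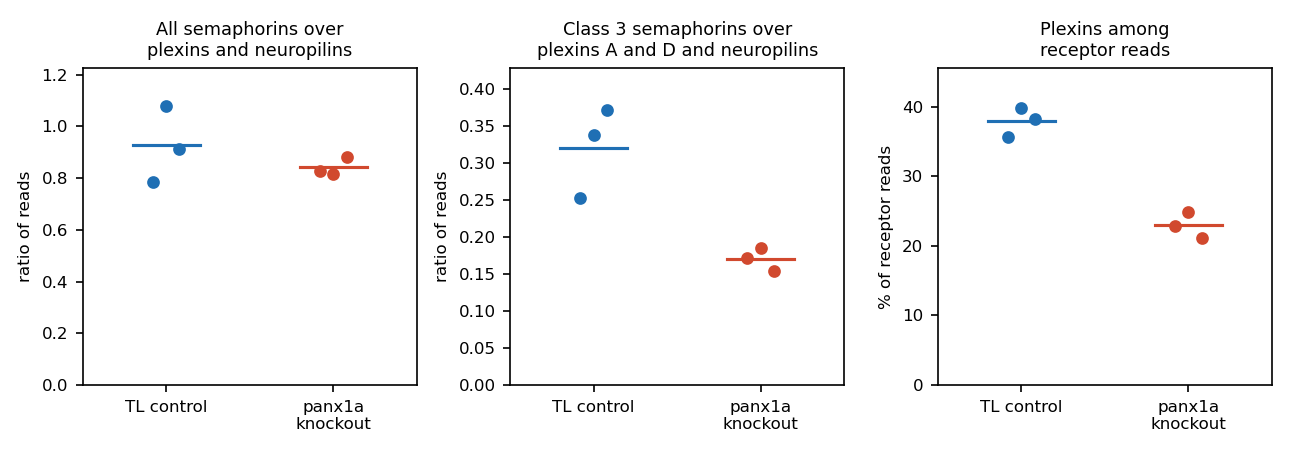
Balance of ligand and receptor reads in each library, with TL controls in blue, panx1a-/- larvae in red and lines at the mean of 3. Left, the ratio of reads on all semaphorins to reads on plexins and neuropilins overlaps between genotypes; middle, the ratio for class 3 semaphorins and their receptors lies at 0.252 or above in TL controls and at 0.185 or below in panx1a-/- larvae; right, plexins make up at least 35.7% of receptor reads in TL controls and at most 24.9% in panx1a-/- larvae.

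Of the 6 CRMPs, only crmp1 was called in edgeR's quasi-likelihood test (16.7%, against 21.6% of all genes called in either direction). CRMP1 relays semaphorin 3A signals in mouse neurons. crmp1 was at 11.03, 8.52 and 14.9 CPM in the TL controls and at 6.78, 4.995 and 6.47 CPM in panx1a-/- larvae, below every control. It fell 1.89-fold, a log2 change of −0.92 (SE 0.25, edgeR quasi-likelihood adjusted p = 0.0418). When a library was left out, it was called only without TL replicate 1 (adjusted p from 0.0396 to 0.151), and it was not called when scaled by library size alone (0.128). dpysl4 was at 3.55, 3.39 and 5.73 CPM and at 2.26, 1.54 and 2.92 CPM, without overlap, but it missed the threshold (log2 fold change −0.92, SE 0.33, edgeR adjusted p = 0.0738). It passed in edgeR's exact test (0.0482) and in the quasi-likelihood test with a replicate block (0.0354). The CRMP with the most reads, dpysl5b, was at 265, 149 and 208 CPM in the TL controls and at 302, 196 and 328 CPM in panx1a-/- larvae, with overlap (log2 fold change 0.41, adjusted p = 0.289). dpysl2b, dpysl3 and dpysl5a had log2 fold changes of 0.31, 0.25 and −0.01 and adjusted p-values of 0.353, 0.469 and 0.975.

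The TL controls were the more variable genotype for these genes, with a median coefficient of variation of 26.8% against 16.7% in panx1a-/- larvae. TL replicate 2 was the lowest control for 23 of the 33 genes (69.7%), among them all CRMPs, neuropilins and A-type plexins but plxna1b, and for 34.0% of all genes tested. This library also had the lowest summed level of neuronal markers, at 2368 CPM, and the highest of muscle markers, at 167594 CPM against 58549 and 110148 CPM in the other controls. Its sum for gut and pancreas markers stood furthest apart, at 15277 CPM against 2860 and 3469 CPM. It was also the highest control for epidermal markers (46577 against 19747 and 32826 CPM) and for cartilage and bone markers (175 against 88.7 and 163 CPM).

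Other genes of the pathway were taken from lists of co-receptors, VEGF ligands, small GTPases with their regulators, MICAL enzymes, kinases with actin regulators, and proteases. Of 78 listed, 58 were tested, and 5 of these were called higher (8.62%, against 9.88% of all genes) and 10 lower (17.2%, against 11.8%), with a median log2 fold change of −0.06, as over all genes. By list, the calls were 3 lower of 9 co-receptors, 2 lower of 17 small GTPases and regulators, 1 higher and 1 lower of 3 MICAL enzymes, 3 higher and 3 lower of 20 kinases and actin regulators, and 1 higher and 1 lower of 5 proteases. Of 4 VEGF ligands 0 were called in edgeR's quasi-likelihood test, where 1 had an unadjusted p-value below 0.05. DESeq2 and edgeR's exact test each called 1 and limma-voom 0. Single calls also came with upper-quartile factors, at least 10 counts in every library, a replicate block, and without TL replicate 1 or panx1a-/- replicate 2. Of all 58, 0 were called without TL replicate 3, panx1a-/- replicate 1 or panx1a-/- replicate 3 and 1 without TL replicate 2. The count was 22 without TL replicate 1 and 20 without panx1a-/- replicate 2. Over all genes these fits called 3, 19, 4, 142, 4708 and 3658, in this order.

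furinb encodes a copy of furin, a protease that cleaves class 3 semaphorins in cell culture, and had the smallest p-value of these genes. It was at 59.11, 45.0 and 35.9 CPM in the TL controls and at 186, 141 and 160 CPM in panx1a-/- larvae, well apart (log2 fold change 1.80, SE 0.23, edgeR quasi-likelihood adjusted p = 0.0221). The other copy, furina, was at 3.66, 6.59 and 7.28 CPM and at 2.15, 2.50 and 2.71 CPM and was called lower (log2 fold change −1.25, adjusted p = 0.0347). l1camb, a copy of the adhesion molecule L1 that joins neuropilin 1 in semaphorin 3A reception in the mouse, was at 6.45, 5.80 and 8.11 CPM and at 2.67, 2.98 and 3.75 CPM (log2 fold change −1.12, adjusted p = 0.0308). The small GTPase genes rnd2 and rac1b were lower as well. rnd2 was at 9.56, 11.3 and 12.4 CPM and at 5.28, 4.09 and 5.28 CPM (log2 fold change −1.18, adjusted p = 0.0279). rac1b was at 7.59, 9.55 and 12.5 CPM and at 4.46, 4.78 and 4.87 CPM (log2 fold change −1.07, adjusted p = 0.0308). The other copy, rac1a, was not called, at 35.0, 31.5 and 34.3 CPM and at 35.0, 37.3 and 36.7 CPM (log2 fold change 0.11, edgeR adjusted p = 0.534). The Rac effector kinase pak1 was higher, at 34.4, 23.8 and 27.8 CPM and at 55.5, 48.6 and 60.1 CPM (log2 fold change 0.93, adjusted p = 0.0279), and so was mical3b, of the MICAL oxidoreductases that bind plexin in flies, at 24.9, 23.6 and 18.1 CPM and at 39.8, 32.7 and 38.7 CPM (log2 fold change 0.74, adjusted p = 0.0331). Apart from rac1a, these genes were named because they were called, so that their levels did not overlap follows in part from the choice. Over all the partners tested, 30 of 58 did not overlap, against 47.5% of all genes. When scaled by library size alone, 4 of the 58 partners were called higher and 1 lower, in place of 5 and 10. Under this scaling rac1b and l1camb were not called (adjusted p = 0.0616 and 0.0671 in edgeR), and furina was not followed singly.

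**Figure D5:**
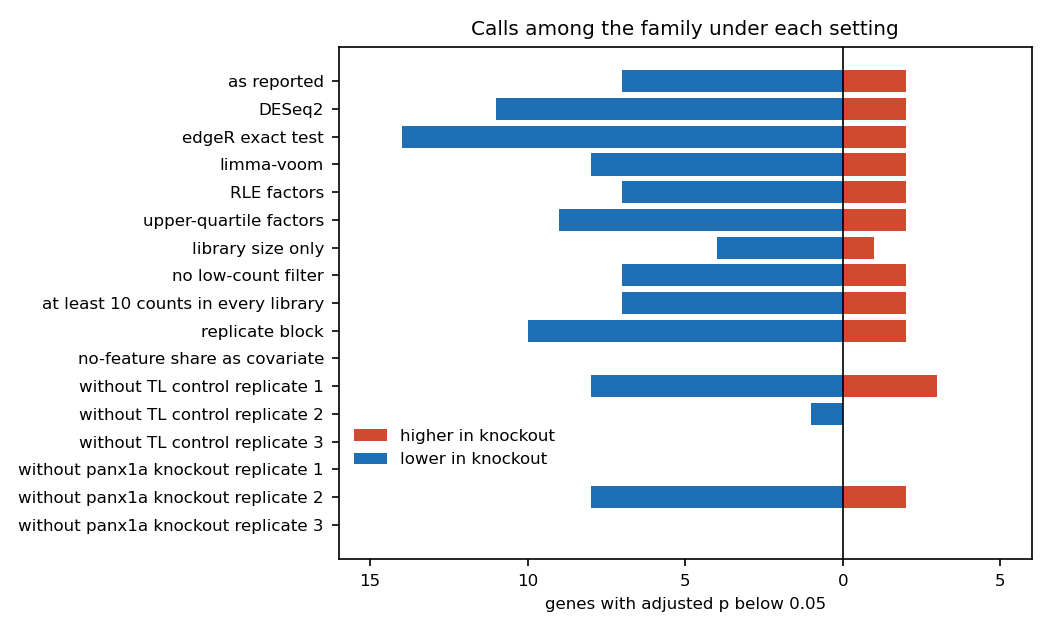
Number of the family's genes with an adjusted p below 0.05 under each setting, with genes lower in panx1a-/- larvae to the left (blue) and higher to the right (red). As reported, 7 were lower and 2 higher. Leaving out TL replicate 3, panx1a-/- replicate 1 or panx1a-/- replicate 3 left 0 in either direction. Adding the share of reads assigned to no gene as a covariate did so too. Over all genes these fits called 3, 19, 4 and 1.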

How the data were processed

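RNA-seq of whole larvae was analyzed from 6 count files, 1 per library. Libraries were directional and sequenced as paired-end reads of 126 bases. The submitters' processing notes name bcl2fastq 2.17, FastQC 0.11.2, Trim Galore 0.4.4, TopHat2 2.0.11, HTSeq 0.6.1p2 and the build danRer11; the strand setting and annotation release were not given in the sources used here. What the authors deposited were unnormalized counts for each gene symbol. The 5 further rows of reads without a gene were kept out of library sizes and tests. Reads assigned to no gene were 30.2% to 59.4% of uniquely aligned reads.

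The packages were DESeq2 1.42.0, limma 3.58.1 and edgeR 4.0.16, run in R 4.3.3. Genes were filtered with filterByExpr, TMM factors set the scale, and the quasi-likelihood test of edgeR (robust, genotype only, two-sided) compared the genotypes. p-values were adjusted by Benjamini-Hochberg over all 12797 genes tested, and a gene was called at an adjusted p below 0.05. Standard errors are the log2 fold change over the square root of F. Replicates of a genotype differed beyond sampling noise (chi-square per degree of freedom at least 46.7) and were kept apart. The biological coefficient of variation was 0.254. Fits were tested on simulated data.

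Every gene matching the symbol rule could be named. Library values were given for called genes and their other copies, the gene with the most reads per class and genes at 0 counts. They were also given for the 5 uncalled genes with the smallest p-values. For comparison sema3bl, sema3e and dpysl4 were added, chosen after their values were seen. Of the partners, values were given for the 6 called with the smallest p-values and for furina as the other copy of furinb. rac1a, the other copy of rac1b, was added after its values were seen. The genes and lists were chosen with earlier results of these data known. RefSeq (GRCz12tu) gave gene order and synonyms only, matching 32 genes by symbol and 3 by synonym. Alternatives were other tests, scalings and filters, the replicate number as a block, the share of reads assigned to no gene as a covariate, and leaving out each library. The result of 1 further marker list is not reported here.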

Additional observations from a re-analysis of the deposited data

Results flagged for a closer look

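Reads assigned to no gene enter no comparison of genes. They made up 48.4% of the uniquely aligned reads in the lowest panx1a-/- library and 42.9% in the highest TL control. Every mutant library was thus above every control. With 3 libraries per genotype, single libraries were not tested for standing apart.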

How the results depend on the processing

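Of all genes, 1264 were called higher and 1506 lower (45.6% higher). With library size as the only scaling 1026 were higher and 607 lower (62.8%; 1633 in all), and with upper-quartile factors 31.2% were higher. The median log2 fold change of all genes moved from −0.06 to 0.17 and −0.17 under these scalings, and the family's median lay 0.57, 0.61 and 0.57 below it. DESeq2 called 1961 genes higher. With the share of reads assigned to no gene as a covariate 1 gene was called in all, lower, and 0 higher. Genes of the family called lower numbered 11 with DESeq2, 14 with edgeR's exact test and 4 with library size only, and 1 was called higher with library size only, in place of 7 and 2. For semaphorins called lower the exact test gave 7 in place of 4, and for receptors DESeq2, the exact test, upper-quartile factors and library size only gave 4, 5, 4 and 1 in place of 2. For CRMPs, the exact test gave 2 and library size only 0 in place of 1. The partner calls, with alternatives chosen after seeing the data, went from 15 to 24 with DESeq2 and 5 with library size only. The covariate left 0 calls in each of these groups, and gave panx1a −2.38 (adjusted p = 0.574).

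With a replicate block in the fit, 12 of the family were called (10 lower), CRMPs 2 and partners 24. Deviations of same-numbered libraries correlated by 0.117, 0.301 and 0.078, all positive. Libraries of different numbers were not set beside them, so these values cannot show whether the numbers pair the libraries. The main fit used no pairing. Leaving out a library gave 3 to 4708 calls over all genes (1 to 2392 higher, 1 to 2316 lower), 0 to 3 higher and 0 to 8 lower in the family, 0 to 7 semaphorins, 0 to 3 receptors, 0 to 1 CRMP and 0 to 22 partners. panx1a stayed between −2.90 and −2.62 and lost its call when either TL replicate 3 (adjusted p = 0.0637, edgeR quasi-likelihood test) or panx1a-/- replicate 3 (0.0649) was dropped. No called gene of the family changed direction in any fit.

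Directions turned only among uncalled genes. With library size only, dpysl5a (0.19), nrp1a (0.10) and plxna1b (0.13) were above 0, and dpysl5a also with RLE factors and DESeq2 (0.0285 and 0.0291). With the covariate, dpysl2b (−0.31), dpysl3 (−0.55), dpysl5b (−0.52), nrp2a (−0.0649) and sema5a (−0.35) were below 0 and sema3e (0.32) above it. With a library left out, dpysl5a ran from −0.25 to 0.15, nrp1a from −0.28 to 0.12 and plxna1b from −0.16 to 0.0179. The cause was not tested. Depth was low for sema3ga and sema3gb, at 8 to 16 reads per panx1a-/- library, and for sema3bl, at 12 to 26.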
